A study of Mus musculus with 36 samples.

Results

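ATP-binding cassette (ABC) transporter genes were described in RNA from sorted mouse lung tumour cells: 50 protein-coding genes out of 49585 gene IDs, chosen by symbols that start with Abc, continue with a letter from a to g and end in a number with or without a further letter. The 50 genes comprised 16 of subfamily ABCA, 10 of ABCB, 10 of ABCC, 4 of ABCD, 1 of ABCE, 3 of ABCF and 6 of ABCG. ABC proteins bind and hydrolyse ATP, and most of them use it to move lipids, sterols, peptides, haem, conjugated anions or drugs across a membrane. ABCE1 and the ABCF proteins have no membrane-spanning part and act in translation. In the lung, ABCA3 loads phospholipid into the lamellar bodies of alveolar type 2 (AT2) cells, the organelles that store surfactant, and ABCG2 is an apical efflux pump of broad range, known for drug resistance and for the dye exclusion that marks side population cells.

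The cells were EGFP-positive neoplastic cells sorted from lung tumours driven by the fusion kinase EML4-ALK, in which part of EML4 is joined to the kinase ALK at different breakpoints in its variants. The 36 tumours fell into 4 groups of 9, namely Variant 1 tumours with sgSetd2 (Setd2-deficient), Variant 1 tumours with sgNeo (Setd2-proficient), Variant 3 tumours with sgSetd2 and Variant 3 tumours with sgNeo. Setd2 encodes the enzyme that adds the last methyl group to lysine 36 of histone H3, and all 4 groups carried a fusion and a guide. Each group held 3 title codes with 3 tumours per code, and the code was the unit of each test (n = 3 per group). Nothing in the labels says that codes are separate animals, so p-values measure only the spread between codes, which may be technical. By Ddx3y above 50 CPM, 1 of 3 Variant 1 sgSetd2 and 0 of 3 Variant 1 sgNeo codes were called male. In Variant 3 the call was male for 1 of 3 sgSetd2 and 2 of 3 sgNeo codes. Codes of a group thus differed in called sex except in Variant 1 sgNeo. Mouse strain, alleles, age, time and the way fusion and guide were delivered could not be taken from the labels.

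Total counts ran from 17.9 to 137.2 M per tumour and from 91.5 to 212.1 M per code. Setd2 averaged 37.4 ± 2.515 CPM (counts per 1 M counts) in Variant 1 sgSetd2 codes and 67.7 ± 12.8 CPM in Variant 1 sgNeo codes (SD, n = 3 each; exact two-sided permutation p = 0.1, the smallest that 3 against 3 allows). It averaged 45.7 ± 13.2 CPM in Variant 3 sgSetd2 codes and 54.6 ± 10.3 CPM in Variant 3 sgNeo codes (SD, n = 3 each; exact permutation p = 0.4). A gene count does not show whether a guide-edited transcript still encodes a protein. All 8 AT2 markers were present, with summed levels of 27810 to 230000 CPM per tumour. Over the tumours, the 6 macrophage markers summed to at most 13.3 CPM, the 4 endothelial markers to at most 7.18 CPM and Ptprc, the pan-leucocyte gene, to at most 3.57 CPM. The 5 fibroblast markers had a median sum of 23.3 CPM in Variant 1 sgSetd2 tumours and 5.49 CPM in Variant 1 sgNeo tumours, and of 43.4 CPM in Variant 3 sgSetd2 tumours and 8.98 CPM in Variant 3 sgNeo tumours. Their highest sum, 379 CPM, was in tumour 1 of code CE467 (Variant 1 sgNeo), which was also the lowest in AT2 markers, at 27810 CPM. The 5 club and ciliated markers had a median sum of 296 CPM in Variant 1 sgSetd2 tumours and 51.2 CPM in Variant 1 sgNeo tumours, and of 97.9 CPM in Variant 3 sgSetd2 tumours and 17.9 CPM in Variant 3 sgNeo tumours. The part of fibroblast, club and ciliated cells in the results was not tested.

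Levels were compared between genes as CPM per kilobase of annotated exons, averaged over the 12 codes. Abca3 stood highest at 61.3 ± 14.0 CPM per kilobase (SD, n = 12). It was followed by Abcd3, whose product PMP70 carries fatty acids into peroxisomes, at 52.2 ± 13.5 CPM per kilobase, and the means of the pair lay within their SDs although Abca3 was above Abcd3 in 8 of 12 codes. The next level was lower by more than the spread: Abcf2 had 27.6 ± 3.36 CPM per kilobase and lay under Abcd3 in all 12 codes. Abce1 (21.8), Abcf1 (17.0) and Abcf3 (14.8 CPM per kilobase), whose products act in ribosome recycling or at the ribosome, came next, so that all 4 genes of the translation subfamilies ranked in the first 6. Abcc3, an exporter of conjugated organic anions, had 11.6 CPM per kilobase, Abcc5 10.3 and Abcc4 7.15 CPM per kilobase. From Abcf2 to Abcc3, each gap between neighbours was larger than either SD, and the higher gene of the pair lay above the lower one in 10 (Abcf2 over Abce1), 12 (Abce1 over Abcf1), 11 (Abcf1 over Abcf3) and 11 (Abcf3 over Abcc3) of 12 codes. From Abcc3 down to Abca5, each gap was smaller than the larger SD of its pair.

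Of the mitochondrial half-transporters, Abcb8 had 6.28 CPM per kilobase and Abcb10, linked to haem synthesis, 3.35 CPM per kilobase. Abcd4, a lysosomal protein of cobalamin transport, had 3.11 CPM per kilobase. Abca7, Abca2 and Abca1, lipid exporters, had 3.77, 3.46 and 2.72 CPM per kilobase. Abcg2 ranked 18th, at a mean of 1.55 CPM per kilobase with an SD of 1.96 over the codes, the only one of the first 20 whose SD exceeded its mean. Altogether 20 of 50 genes averaged at least 5 CPM and 26 averaged under 1 CPM.

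**Figure D1:**
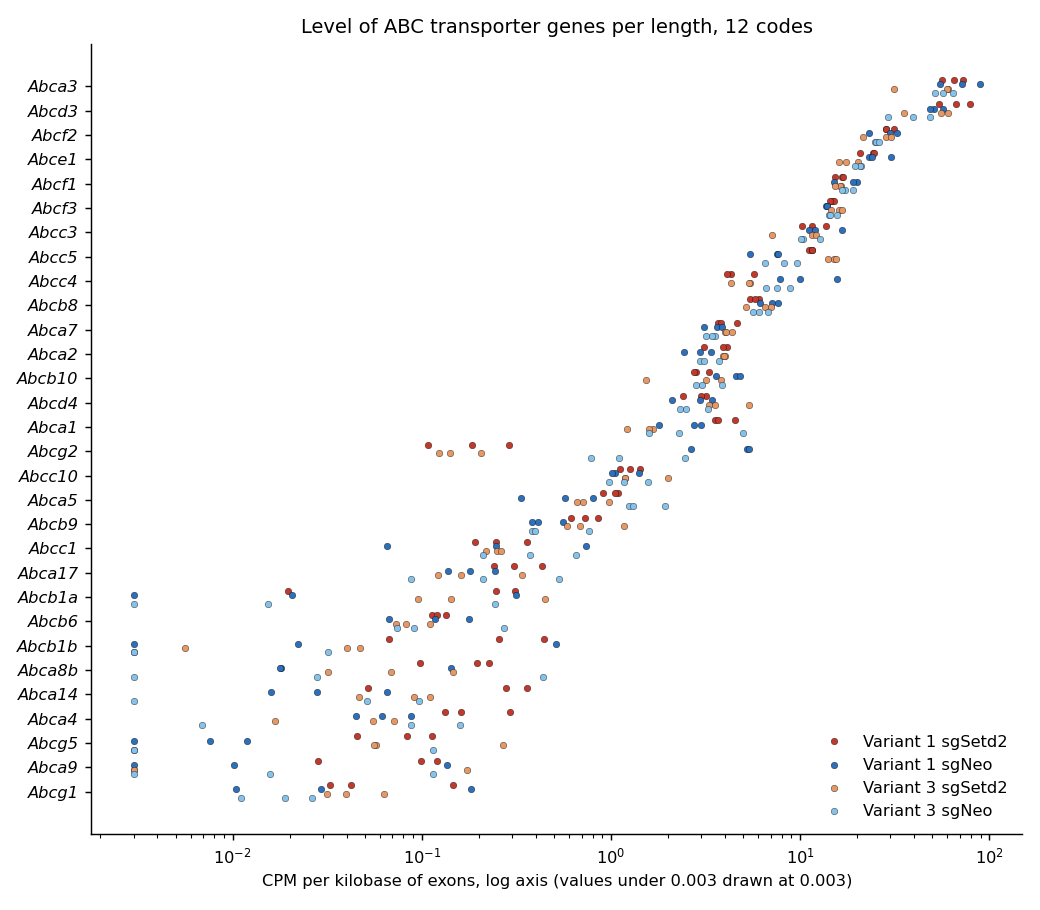
Level of the ABC transporter genes reported here in CPM per kilobase of exons (log axis) in 12 codes, coloured by group, for genes with a mean of at least 0.05; values under 0.003 are drawn at 0.003. Abca3 and Abcd3 lead at means of 61.3 and 52.2 CPM per kilobase, most genes keep their codes close together, and Abcg2 splits, with the 6 sgSetd2 codes left of the 6 sgNeo codes.

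A filter on low counts left 39 of the 50 genes for testing. The 11 genes left out were Abca6, Abca12, Abca15, Abca16, Abcb5, Abcb11, Abcc6, Abcc9, Abcc12, Abcg3 and Abcg4. Abca6 and Abcg3 had no count in any tumour, which allows a level of up to 0.00174 CPM over all libraries. Abcc9, the sulfonylurea receptor subunit found in muscle and vessel walls, had the most counts of the 11, 174 in all, of which 111 came from 1 Variant 1 sgSetd2 tumour. Abcc6 had 55 counts, of which 52 came from 1 Variant 1 sgSetd2 tumour. Among the 39 tested genes, 15 averaged under 1 CPM. Of these, Abcb6 and Abcg1 had a count in 9 of 9 tumours of every group, and the others had none in some tumours.

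In Variant 1, 3 of the 39 tested genes passed an adjusted p of 0.05 between sgSetd2 and sgNeo codes, against 1.42% of all 20009 genes tested: Abcg2 and Abcc4 fell and Abcc5 rose, where 0.72% of all genes fell and 0.7% rose. In Variant 3, 2 of 39 passed, against 1.49% of all genes: Abcg2 fell and Abcc5 rose, where 0.615% of all genes fell and 0.88% rose. With both variants averaged, the same 3 genes as in Variant 1 passed, a share of 7.69% of the tested ABC genes against 7.35% of all genes (3.63% fell and 3.72% rose), so that share lay near the background. The median log2 fold change of the 39 genes was 0.19 in Variant 1, 0.10 in Variant 3 and 0.19 averaged, against -0.01, 0.02 and 0.01 over all genes tested. Of the 39 genes, 26 had a log2 fold change above 0 in Variant 1 and 22 in Variant 3. ABC transporter genes did not move as a block.

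**Figure D2:**
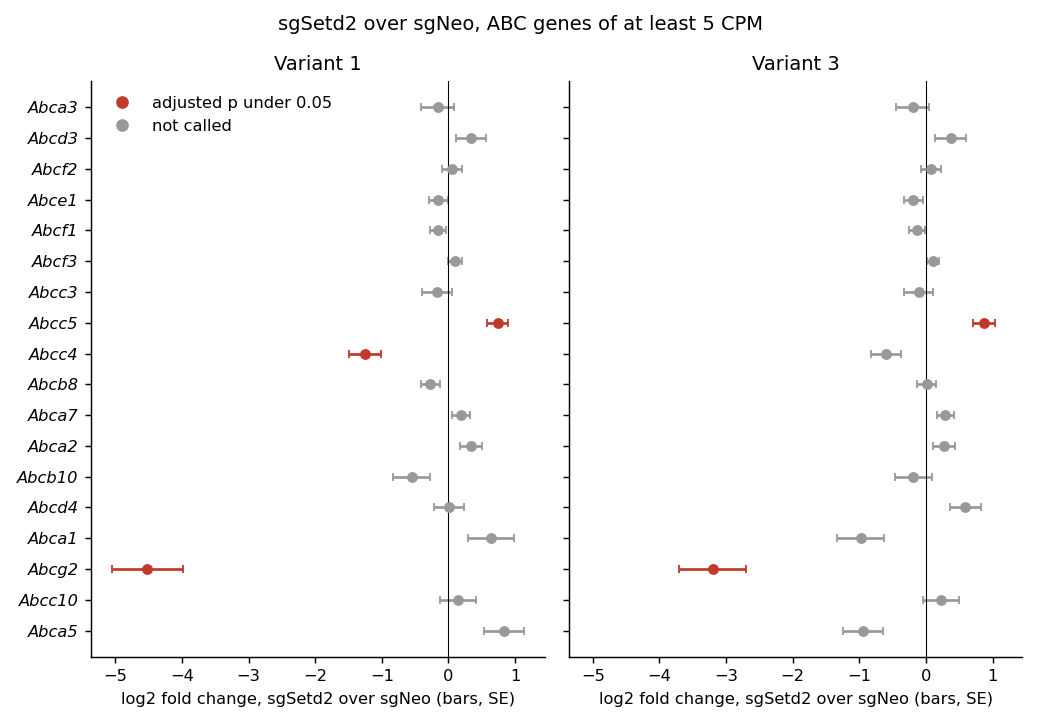
Log2 fold change of sgSetd2 over sgNeo codes, with its SE, for the ABC transporter genes reported here with a mean of at least 5 CPM, in Variant 1 (left) and Variant 3 (right); red marks an adjusted p under 0.05 (edgeR). Abcg2 lies at -4.52 and -3.20, Abcc5 at 0.74 and 0.87, and Abcc4 passes in Variant 1 only, at -1.25.

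Abcg2 (ENSMUSG00000029802, chr6:58584523-58695676, plus strand, GRCm38) encodes a half-transporter that works as a dimer and exports urate, porphyrins, sulfated steroids and many drugs. RefSeq (GRCm38.p6) places 3 start windows on the gene, each running from 250 bases before to 50 after a start. They are shown because the counts are per gene and cannot tell which start was used. The start of window 2 lies 12139 bases and that of window 3 56013 bases downstream of that of window 1. Motifs were searched on both strands and are in capitals, with overlapping matches merged: the cAMP response element TGACGTCA, the GC box GGGCGG and the xenobiotic response element core GCGTG.
Abcg2 window 1, chr6:58584283-58584582, plus strand: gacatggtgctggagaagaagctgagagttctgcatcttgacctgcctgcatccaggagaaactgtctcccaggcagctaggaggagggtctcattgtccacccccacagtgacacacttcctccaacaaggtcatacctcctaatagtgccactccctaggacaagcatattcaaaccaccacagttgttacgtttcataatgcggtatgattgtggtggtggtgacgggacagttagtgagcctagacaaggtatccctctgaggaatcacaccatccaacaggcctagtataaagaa
Abcg2 window 2, chr6:58596422-58596721, plus strand: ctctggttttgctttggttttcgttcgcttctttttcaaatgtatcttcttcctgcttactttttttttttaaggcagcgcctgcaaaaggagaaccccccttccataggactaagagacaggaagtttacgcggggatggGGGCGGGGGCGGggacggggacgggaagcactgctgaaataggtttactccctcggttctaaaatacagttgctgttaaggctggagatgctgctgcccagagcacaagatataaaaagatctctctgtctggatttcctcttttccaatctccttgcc
Abcg2 window 3, chr6:58640296-58640595, plus strand: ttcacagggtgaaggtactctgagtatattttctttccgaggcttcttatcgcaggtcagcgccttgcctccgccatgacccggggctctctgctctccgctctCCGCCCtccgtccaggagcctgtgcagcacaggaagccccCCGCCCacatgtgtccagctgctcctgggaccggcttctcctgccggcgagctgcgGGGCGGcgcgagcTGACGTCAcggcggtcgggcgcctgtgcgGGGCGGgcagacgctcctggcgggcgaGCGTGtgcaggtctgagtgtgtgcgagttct
The windows hold 3, 10 and 28 CpG dinucleotides in that order, against a median of 7 over all 32851 RefSeq windows of this length. Window 1 holds none of the 3 motifs, window 2 holds 2 GC boxes, and window 3 holds 4 GC boxes, 1 cAMP response element and 1 xenobiotic core. Of all windows, 35.7% hold a GC box, 32.4% the xenobiotic core and 1.79% the cAMP response element. A match is a string of letters, not a shown binding site.

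Abcg2 was lower in sgSetd2 than in sgNeo tumours of both variants, at the level of the code. The Variant 1 sgSetd2 codes had 1.497 CPM (CE475), 2.345 (CE479) and 0.875 (CE483), against 21.7 CPM (CE467), 42.8 (CE468) and 43.7 (CE472) in the Variant 1 sgNeo codes. The Variant 3 sgSetd2 codes had 1.01 CPM (CE450), 1.68 (CE454) and 1.15 (CE456), against 20 CPM (CE428), 6.38 (CE429) and 9.01 (CE433) in the Variant 3 sgNeo codes. The code values of sgSetd2 and sgNeo did not overlap in either variant. Such separation of 3 against 3 codes has an exact two-sided permutation p of 0.1, here and wherever it is named below. Uncalled ABC genes showed it too, among them Abcb8 and Abcb9 in Variant 1, and its share over all genes is not given. In edgeR's quasi-likelihood test, Abcg2 fell with sgSetd2, at log2 fold changes of -4.52 in Variant 1 (SE 0.53, adjusted p = 0.00674), -3.20 in Variant 3 (SE 0.50, adjusted p = 0.0111) and -3.86 with both averaged (SE 0.36, adjusted p = 0.00045). An exact two-sided permutation of guides over codes within variants gave p = 0.005, the smallest it can give. In sorted bulk cells, fewer cells that express a gene and less RNA per cell cannot be told apart.

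By tumour, the difference rested on some of the sgNeo tumours. The 9 Variant 1 sgSetd2 tumours ran from 0.0418 through a median of 1.63 to 3.43 CPM of Abcg2. Among the Variant 1 sgNeo tumours, code CE467 had 38.7, 7.74 and 0 CPM, code CE468 71.7, 1.86 and 0.607 CPM, and code CE472 100.5, 0.182 and 2.98 CPM. Each Variant 1 sgNeo code thus held 1 tumour far above its other tumours, and 4 of 9 Variant 1 sgNeo tumours lay above the highest Variant 1 sgSetd2 tumour. The 9 Variant 3 sgSetd2 tumours ran from 0 through a median of 1.11 to 2.23 CPM. Among the Variant 3 sgNeo tumours, code CE428 had 0.841, 53.6 and 0 CPM, code CE429 2.502, 4.61 and 14.45 CPM, and code CE433 21.3, 15.4 and 0.431 CPM. There, 6 of 9 Variant 3 sgNeo tumours lay above the highest Variant 3 sgSetd2 tumour. The 5 tumours with no Abcg2 count allow levels of up to 0.0493 to 0.129 CPM. The SD between tumours of a code, on the log2(CPM + 1) scale, was 1.94 for Abcg2, against 0.43 for Abca3 and 0.52 for Abcc4.

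**Figure D3:**
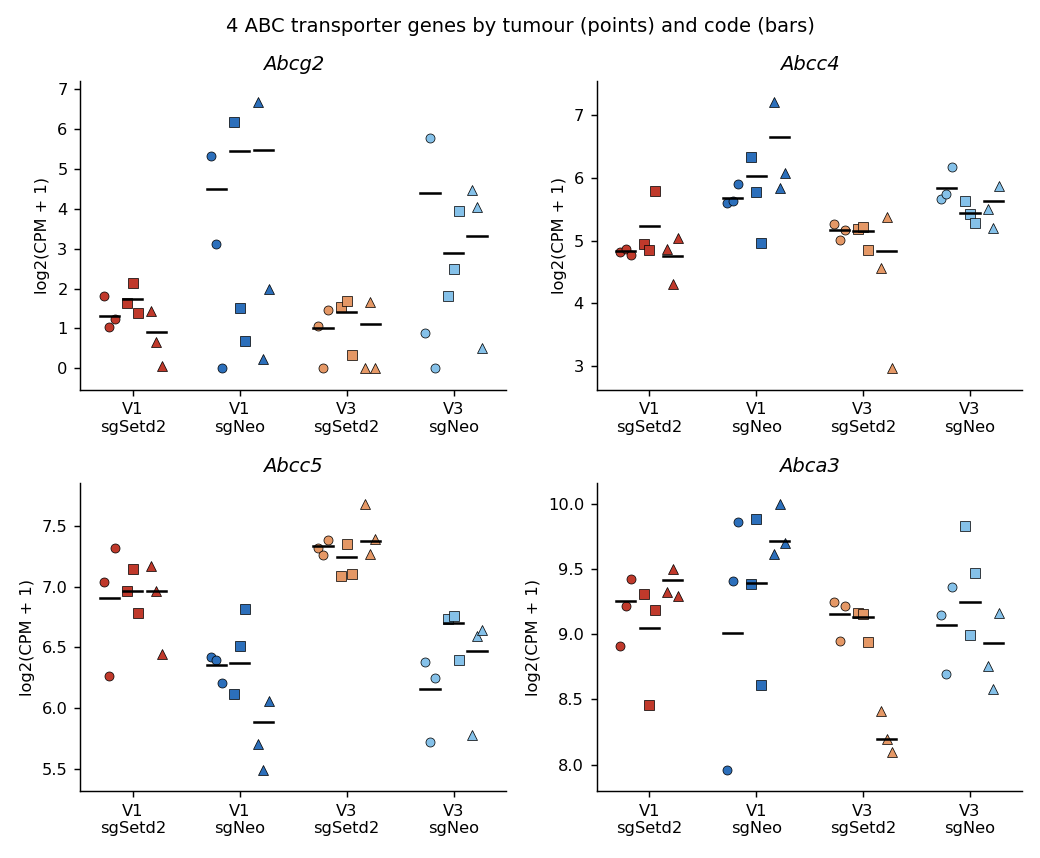
Level of Abcg2, Abcc4, Abcc5 and Abca3 on the log2(CPM + 1) scale in 36 tumours (points, 1 symbol shape per code) and in the summed counts of each code (bars), by group. Abcg2 reaches 100.5 CPM in single sgNeo tumours and at most 3.43 CPM in sgSetd2 tumours. Abcc5 separates all Variant 3 sgSetd2 from all Variant 3 sgNeo tumours (3 codes per group, share over all genes not given), and Abca3 overlaps between guides.

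The 5 tumours highest in Abcg2 were also high in proliferation genes. Over 10 cell cycle genes, the mean log2-CPM of the 5 tumours above 20 CPM of Abcg2, all of them sgNeo, was 4.77 to 5.39. One of them, tumour 1 of code CE467, was the tumour of the highest fibroblast marker sum. Tumour 3 of code CE429 (Variant 3 sgNeo), at 14.45 CPM of Abcg2, had a cell cycle mean of 2.38. The 1 other tumour that reached 4.77, tumour 1 of code CE450 (Variant 3 sgSetd2), had a cell cycle mean of 4.79 and 1.11 CPM of Abcg2. The highest cell cycle mean among Variant 1 sgSetd2 tumours was 3.15, in tumour 1 of code CE475, so no tumour of that group lies in the upper range. Of the 10 cell cycle genes, 4 fell in Variant 1 sgSetd2 codes (Ccna2, Bub1, Cdk1 and Aurkb), against 0.72% of all genes, and none passed in Variant 3. Leaving out the tumour of highest cell cycle mean in each code removes all 5 of these tumours, so it cannot tell proliferation apart from the tumours on which the difference rested. Abcg2 then did not pass, at a log2 fold change of -1.16 (adjusted p = 0.714, edgeR) in Variant 1, -2.20 (0.352) in Variant 3 and -1.68 (0.214) averaged.

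**Figure D4:**
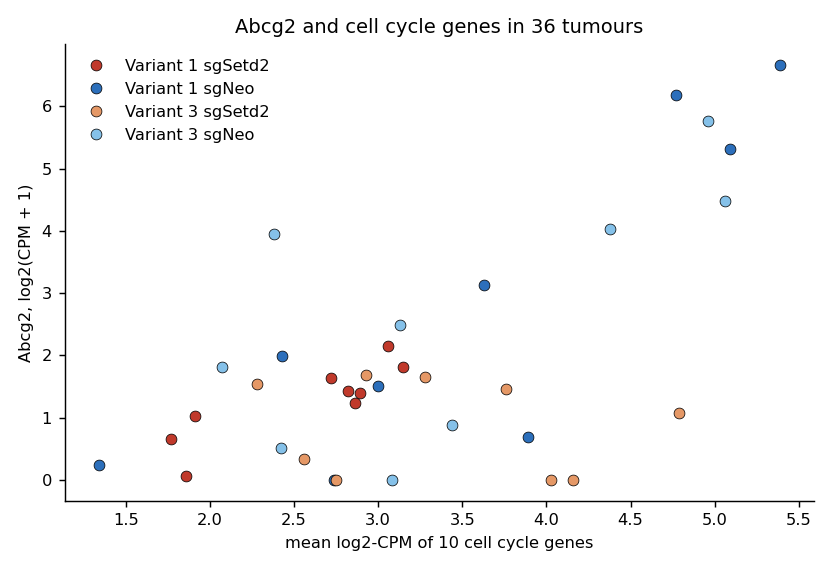
Abcg2 on the log2(CPM + 1) scale against the mean log2-CPM of 10 cell cycle genes in 36 tumours, coloured by group. The 5 sgNeo tumours above 20 CPM have cell cycle means of 4.77 to 5.39, where 1 sgSetd2 tumour, at 4.79, has 1.11 CPM, and the sgSetd2 tumours stay at or under 3.43 CPM throughout.

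Other weightings gave smaller or less certain Abcg2 differences. With each tumour weighted equally within its code (limma on mean log2-CPM), the value was -1.56 in Variant 1 (adjusted p = 0.418), -2.98 in Variant 3 (0.0753) and -2.27 averaged (0.0331). With tumours as units and the code as a random block (limma voom), it was -2.74 in Variant 1 (0.466), -3.26 in Variant 3 (0.405) and -3 averaged (0.147). In fits without 1 code or tumour, the averaged call held in 48 of 48 (edgeR adjusted p up to 0.0136). The Variant 1 call was lost without tumour 1 of CE468 (-3.82, adjusted p = 0.115), tumour 2 of CE472 (-3.82, 0.108) or tumour 9 of CE456 (-4.52, 0.0666). The Variant 3 call was lost without tumour 2 of CE428 (-2.06, adjusted p = 0.242), tumour 1 of CE468 (-3.20, 0.138), tumour 9 of CE456 (-3.69, 0.108), tumour 2 of CE472 (-3.20, 0.0974), tumour 1 of CE467 (-3.20, 0.0634) or code CE450 (-3.06, 0.0549). CE467, CE468 and CE472 are Variant 1 codes outside the Variant 3 comparison, and CE456 is a Variant 3 code outside that of Variant 1. Here and below, tumours of the other variant enter a comparison only through the shared filter, scaling, spread and adjustment. Without the 4 tumours of Col1a1 above 10 CPM, the Variant 3 value was -3.25 (0.0681).

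Abcc4 (ENSMUSG00000032849, chr14:118482692-118706219, minus strand), which encodes MRP4, an exporter of cyclic nucleotides, prostaglandins and conjugated anions, was also lower with sgSetd2. Its codes had 27.6, 36.55 and 26.1 CPM in Variant 1 sgSetd2, against 50.2, 64.2 and 99.7 CPM in Variant 1 sgNeo. They had 34.8, 34.5 and 27.5 CPM in Variant 3 sgSetd2, against 56.4, 42.4 and 48.3 CPM in Variant 3 sgNeo. The code values did not overlap between guides in either variant. Abcc4 fell in Variant 1 (log2 fold change -1.25, SE 0.24, adjusted p = 0.0308, edgeR) and with both variants averaged (-0.92, SE 0.17, adjusted p = 0.00866). Its Variant 3 value, -0.60, did not pass (SE 0.23, adjusted p = 0.252), and the difference between the variants' values, 0.64, had an adjusted p of 0.834. The averaged call held in 48 of 48 fits without 1 code or tumour and in all 8 other settings tried.

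By tumour, Abcc4 had 18.8 to 54.2 CPM (median 28.0) in Variant 1 sgSetd2 and 30.2 to 146 CPM (median 56.2) in Variant 1 sgNeo. It had 6.82 to 40.55 CPM (median 34.9) in Variant 3 sgSetd2 and 35.7 to 71.2 CPM (median 48.4) in Variant 3 sgNeo. The tumours of both guides overlapped in both variants. The highest of all 36 tumours, tumour 2 of CE472 at 146 CPM, was also the highest for Abcg2. The Variant 1 call held in 39 of 48 such fits. It was lost without code CE468 (-1.32, adjusted p = 0.0818), CE472 (-0.93, 0.0758), CE475 (-1.19, 0.142) or CE483 (-1.16, 0.149). It was also lost without tumour 1 of CE468 (-1.09, 0.133), tumour 2 of CE472 (-1, 0.0614) or tumour 1 of CE479 (-1.17, 0.0609). The same held without a tumour of 2 Variant 3 codes, tumour 3 of CE433 (-1.25, 0.0604) or tumour 9 of CE456 (-1.25, 0.122). Without the tumour of highest cell cycle mean in each code, Abcc4 had -0.82 in Variant 1 (adjusted p = 0.302) and -0.75 averaged (0.0393). The Variant 1 call was also lost with tumours weighted equally (-1.03, 0.0854), with only the groups compared (-1.24, 0.08) and with the sex of the code as a covariate (-1.21, 0.0727).

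Abcc5 (ENSMUSG00000022822, chr16:20331303-20426394, minus strand), which encodes MRP5, another exporter of organic anions and cyclic nucleotides, moved the other way and was higher with sgSetd2. Its codes had 119, 124 and 124 CPM in Variant 1 sgSetd2, against 81.0, 81.7 and 58.0 CPM in Variant 1 sgNeo. They had 161, 150 and 165 CPM in Variant 3 sgSetd2, against 70.1, 103 and 87.8 CPM in Variant 3 sgNeo. Neither variant showed overlap of the code values between guides. Abcc5 rose in Variant 1 (log2 fold change 0.74, SE 0.16, adjusted p = 0.0498, edgeR), in Variant 3 (0.87, SE 0.16, adjusted p = 0.0258) and averaged (0.80, SE 0.11, adjusted p = 0.00237). The averaged call held in 48 of 48 fits without 1 code or tumour, at 0.73 to 0.87, and in all 8 other settings tried. Without the tumour of highest cell cycle mean in each code it stood at 0.62 (adjusted p = 0.0243).

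By tumour, Abcc5 had 135 to 204 CPM (median 158) in Variant 3 sgSetd2 and 51.6 to 107 CPM (median 83.4) in Variant 3 sgNeo, with no overlap among 9 against 9 tumours. The 9 tumours of a group came from 3 codes and are not separate units of testing. The share of all genes without overlap by tumour is not given. It had 75.7 to 159 CPM (median 124) in Variant 1 sgSetd2 and 43.9 to 111.5 CPM (median 72.7) in Variant 1 sgNeo, with overlap. The Variant 1 call lay at the threshold and held in 14 of 48 fits: it was lost without 10 of the 12 codes and without 24 of the 36 tumours, with adjusted p up to 0.183 (edgeR), while the log2 fold change stayed at 0.59 to 0.85. The Variant 3 call held in 42 of 48 fits. It was lost without code CE428 (0.73, adjusted p = 0.0926), CE433 (0.88, 0.0934), CE450 (0.86, 0.0796) or CE456 (0.84, 0.0604). It was also lost without tumour 1 of CE468 (0.87, 0.0577) or tumour 6 of CE472 (0.87, 0.0551), both from Variant 1 codes. With only the groups compared, the values were 0.74 (adjusted p = 0.0736) in Variant 1 and 0.87 (0.07) in Variant 3, and without the tumour of highest cell cycle mean in each code 0.51 (0.377) and 0.73 (0.069). In Variant 1 the call was also lost with tumours weighted equally (0.72, 0.101) and with the sex of the code as a covariate (0.69, 0.106).

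Because these exporters of one subfamily differed in direction, the RefSeq window at the outermost start of each is shown, with the same motifs in capitals; both genes lie on the minus strand and are printed 5′ to 3′ along it.
Abcc4, chr14:118706170-118706469, minus strand: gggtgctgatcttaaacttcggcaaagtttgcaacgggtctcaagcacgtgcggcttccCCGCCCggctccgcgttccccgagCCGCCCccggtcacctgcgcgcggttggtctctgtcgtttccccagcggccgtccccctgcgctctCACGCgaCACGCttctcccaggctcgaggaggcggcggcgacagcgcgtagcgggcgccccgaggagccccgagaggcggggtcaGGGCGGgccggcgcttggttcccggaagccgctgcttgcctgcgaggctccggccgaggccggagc
Abcc5, chr16:20426345-20426644, minus strand: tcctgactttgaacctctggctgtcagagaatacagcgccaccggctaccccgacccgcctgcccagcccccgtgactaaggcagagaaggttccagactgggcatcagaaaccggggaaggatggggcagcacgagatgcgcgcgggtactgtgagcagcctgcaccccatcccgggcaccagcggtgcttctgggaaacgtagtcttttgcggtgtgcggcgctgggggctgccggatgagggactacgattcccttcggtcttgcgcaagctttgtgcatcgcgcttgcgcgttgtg
The Abcc4 window holds 41 CpG dinucleotides, 3 GC boxes and 2 xenobiotic cores. A further RefSeq window of Abcc4, chr14:118676882-118677181, whose start lies 29288 bases downstream, holds 6 CpG dinucleotides and none of the 3 motifs. The Abcc5 window holds 24 CpG dinucleotides and none of the 3 motifs. None of these windows holds the cAMP response element. Windows were found for 38 of the 50 genes.

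The other organic anion exporters did not pass. Abcc3 averaged 67.25 ± 9.80 CPM in Variant 1 sgSetd2 and 75.5 ± 16.7 CPM in Variant 1 sgNeo, and 58.4 ± 15.7 CPM in Variant 3 sgSetd2 and 63.1 ± 8.44 CPM in Variant 3 sgNeo (SD, n = 3 each). Abcc1, which encodes MRP1, had code values of 0.989 to 11.1 CPM in Variant 1 sgNeo, and its SD between tumours of a code was 1.14 on the log2(CPM + 1) scale, second to Abcg2. Abcc10 averaged between 7.91 and 9.97 CPM in the 4 groups. Abcc8, the sulfonylurea receptor of beta cells, had 50 counts in 5 of 9 Variant 1 sgSetd2 tumours and 1 count in Variant 1 sgNeo tumours, and 4 counts in Variant 3 sgSetd2 and 0 in Variant 3 sgNeo tumours (adjusted p = 0.173 in Variant 1 and 0.0698 averaged, edgeR). By code, Abcc8 had 1, 3 and 0 counts in Variant 3 sgSetd2, against 14, 18 and 18 counts in Variant 1 sgSetd2. The fitted log2 difference, -4.28 (SE 1.61, adjusted p = 0.427), rests on these few counts.

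Of the P-glycoprotein genes, Abcb1a and Abcb1b, a pair of related neighbours that may share some reads, counts came from few sgNeo tumours. Abcb1a had counts in 7 of 9 Variant 1 sgSetd2 and 3 of 9 Variant 1 sgNeo tumours, and in 8 of 9 Variant 3 sgSetd2 and 3 of 9 Variant 3 sgNeo tumours. Abcb1b had counts in 9 of 9 and 4 of 9 Variant 1 tumours with sgSetd2 and sgNeo, and in 6 of 9 and 2 of 9 Variant 3 tumours with sgSetd2 and sgNeo. Its mean was 2.05 ± 1.51 CPM in Variant 1 sgSetd2 codes and 1.42 ± 2.31 CPM in Variant 1 sgNeo codes, where code CE467 alone had 4.08 CPM. Neither gene passed in edgeR. With tumours as units (limma voom, code as a random block), both were higher in sgSetd2 averaged over variants, at 3.29 for Abcb1a (adjusted p = 0.0456) and 3.25 for Abcb1b (adjusted p = 0.0127).

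Abca3 (ENSMUSG00000024130, chr17:24351950-24410201, plus strand) was the most abundant member in every group in CPM and did not pass in any of the 6 contrasts. Its codes had 608, 528 and 682 CPM in Variant 1 sgSetd2, against 514, 672.5 and 840 CPM in Variant 1 sgNeo. They had 569, 559 and 293 CPM in Variant 3 sgSetd2, against 537, 605 and 487 CPM in Variant 3 sgNeo. The guides overlapped in both variants, with log2 fold changes of -0.16 (SE 0.25, adjusted p = 0.837, edgeR) and -0.20 (SE 0.25, adjusted p = 0.792). The lowest code was CE456, and without it the Variant 3 value was 0.06. Annotated opposite-strand genes overlap Abca3 and other members, among them Abcb9, Abcb10, Abcc4 and Abcc10, and the library kit does not mark strand.

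Of 12 surfactant and lamellar body genes, none passed in Variant 1 and 1 fell in Variant 3 and averaged: Napsa, the aspartic protease that processes surfactant proteins. Napsa averaged 427.5 CPM in Variant 1 sgSetd2 and 826 CPM in Variant 1 sgNeo codes, and 242 CPM in Variant 3 sgSetd2 and 752 CPM in Variant 3 sgNeo codes (log2 fold change -1.64, SE 0.26, adjusted p = 0.0111 in Variant 3). The list's median log2 fold change was 0.43 in Variant 1 and -0.08 in Variant 3. Over all genes tested, 1.42% passed in Variant 1, 1.49% in Variant 3 and 7.35% averaged.

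Abca1 and Abca5 had opposite fitted values in the variants. Abca1 exports cholesterol and phospholipid to apolipoproteins, and Abca5 is a lysosomal and endosomal protein linked to sterol handling. Abca5 codes had 12.4, 11.96 and 10.4 CPM in Variant 1 sgSetd2, against 9.15, 6.53 and 3.81 CPM in Variant 1 sgNeo. They had 7.54, 8.11 and 11.2 CPM in Variant 3 sgSetd2, against 14.3, 15.05 and 22.02 CPM in Variant 3 sgNeo. The codes did not overlap in either variant, yet sgSetd2 lay above sgNeo in Variant 1 and under it in Variant 3. The log2 fold changes, 0.84 (SE 0.30, adjusted p = 0.197, edgeR) and -0.94 (SE 0.30, adjusted p = 0.163), did not pass, nor did their difference of -1.77 (SE 0.43, unadjusted p = 0.00149, adjusted p = 0.548). DESeq2 called that difference (adjusted p = 0.0151) and the Variant 3 value (0.045).

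Abca1 codes had 36.7, 38.0 and 46.8 CPM in Variant 1 sgSetd2, against 31.1, 18.6 and 28.4 CPM in Variant 1 sgNeo. They had 17.3, 12.6 and 16.5 CPM in Variant 3 sgSetd2, against 16.4, 51.6 and 23.7 CPM in Variant 3 sgNeo, where code CE429 stood apart. The values overlapped between guides in Variant 3 only. The log2 fold changes were 0.64 (SE 0.35, adjusted p = 0.418, edgeR) and -0.98 (SE 0.35, adjusted p = 0.213), with a difference of -1.62 (SE 0.50, adjusted p = 0.684). Within the sgSetd2 codes, Abca1 was lower in Variant 3 than in Variant 1 with no overlap, at a log2 difference of -1.39 (SE 0.36, adjusted p = 0.203 by edgeR and 0.0107 by DESeq2).

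**Figure D5:**
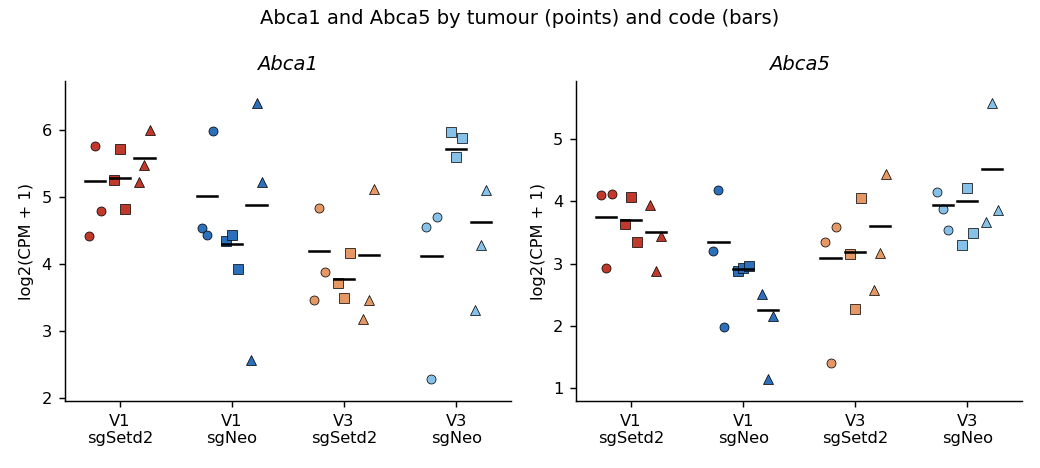
Level of Abca1 and Abca5 on the log2(CPM + 1) scale in 36 tumours (points, 1 symbol shape per code) and in the summed counts of each code (bars), by group. For Abca5 the sgSetd2 codes lie above the sgNeo codes in Variant 1 (10.4 to 12.4 against 3.81 to 9.15 CPM) and under them in Variant 3 (7.54 to 11.2 against 14.3 to 22.02 CPM), while single tumours overlap.

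Of 11 genes of sterol efflux and its receptor LXR, none passed in Variant 1, 1 fell in Variant 3, and 1 rose and 1 fell averaged. Of all genes tested, 0.615% fell in Variant 3, and 3.72% rose and 3.63% fell averaged. Apoe, an acceptor of exported cholesterol, averaged 11.0 CPM in Variant 1 sgSetd2 and 21.8 CPM in Variant 1 sgNeo codes, and 4.20 CPM in Variant 3 sgSetd2 and 38.6 CPM in Variant 3 sgNeo codes (log2 fold change -3.20, SE 0.65, adjusted p = 0.0378 in Variant 3, edgeR). Scd1, a fatty acid desaturase, rose averaged over variants (1.42, SE 0.25, adjusted p = 0.00732).

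No gene of the peroxisomal, mitochondrial or translation subfamilies passed. Abcd3 averaged 438 ± 81.65 CPM in Variant 1 sgSetd2 and 345.5 ± 28.03 CPM in Variant 1 sgNeo codes, and 334 ± 87.95 CPM in Variant 3 sgSetd2 and 258 ± 63.6 CPM in Variant 3 sgNeo codes (SD, n = 3 each; averaged log2 fold change 0.36, SE 0.16, adjusted p = 0.217). Abcd4 had 28.4, 26.4 and 43.0 CPM in Variant 3 sgSetd2 codes, against 20.02, 26.1 and 18.6 CPM in Variant 3 sgNeo codes, which did not overlap (log2 fold change 0.59, SE 0.23, adjusted p = 0.259). Abcb10 averaged 12.8 ± 1.32 CPM in Variant 1 sgSetd2 and 18.6 ± 2.75 CPM in Variant 1 sgNeo codes with no overlap (-0.55, SE 0.28, adjusted p = 0.385). Abcf3 varied least: its code values ran from 49.1 to 59.2 CPM over all 12 codes. Abcd2, a further peroxisomal member, had 76 counts in Variant 3 sgSetd2 tumours, all from 1 tumour of code CE450, and 1 count in Variant 3 sgNeo tumours. The other way round, it had 1 count in Variant 1 sgSetd2 tumours and 38 counts in Variant 1 sgNeo tumours, 22 of them in code CE467 and 16 in CE472. The fitted difference of the Abcd2 guide effect between variants, 10.89 (SE 3.76, adjusted p = 0.714), rests on these few tumours and on the small count that the fit adds.

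Of their partners, 1 of 14 peroxisome genes fell in Variant 1, Crot, a carnitine acyltransferase (-1, SE 0.20, adjusted p = 0.0362, edgeR). Averaged over variants, Crot fell (-0.67) and Scp2, a sterol carrier and thiolase, rose (0.74, adjusted p = 0.0102). Of 15 haem and iron-sulfur genes none passed in either variant, and Alad (-0.45) and Glrx5 (-0.35) fell averaged. None of the 9 ribosome recycling and translation genes tested passed in any contrast by edgeR. In Variant 1, 2 of them had an unadjusted p under 0.05, beside 3186 of all 20009 genes. For these lists, the share of all genes that passed was 1.42% in Variant 1, 1.49% in Variant 3 and 7.35% averaged.

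Genes known from other systems to bear on ABCG2 and ABCC levels were set beside them. Of 14 xenobiotic and hypoxia receptor genes, 12 were tested: none passed in Variant 1, 1 fell in Variant 3, and 1 rose and 2 fell averaged. Pparg, a nuclear receptor that induces ABCG2 in human dendritic cells, averaged 7.22 CPM in Variant 1 sgSetd2 and 18.5 CPM in Variant 1 sgNeo codes, and 2.15 CPM in Variant 3 sgSetd2 and 16.35 CPM in Variant 3 sgNeo codes (log2 fold change -2.93, SE 0.47, adjusted p = 0.0128 in Variant 3, edgeR). Cyp1b1, a reporter of the aryl hydrocarbon receptor, averaged 10.2 CPM in Variant 1 sgSetd2 and 56.1 CPM in Variant 1 sgNeo codes, and 0.800 CPM in Variant 3 sgSetd2 and 36.7 CPM in Variant 3 sgNeo codes (averaged -3.99, SE 0.80, adjusted p = 0.0137). Tiparp, another listed reporter, averaged 100.3 CPM in Variant 1 sgSetd2 and 106.9 CPM in Variant 1 sgNeo codes. In Variant 3, Tiparp averaged 78.25 CPM with sgSetd2 and 60.43 CPM with sgNeo. Cyp1a1 and Ahrr, also reporters, averaged at most 0.0036 and 0.2231 CPM in any group. The activity of these receptors and their part in ABC levels was not tested. Esr1, the oestrogen receptor, averaged 1.87 CPM in Variant 1 sgSetd2 and 0.0575 CPM in Variant 1 sgNeo codes (averaged adjusted p = 0.0104). Of 15 NRF2 genes, 1 rose in each variant (Hmox1 in Variant 1 and Gclc in Variant 3), and averaged 2 rose (Hmox1, 0.77, and Gclc, 0.73) and 2 fell (Gclm, -0.51, and Gstm1, -1.39). Beside both lists, 1.42% of all genes passed in Variant 1, 1.49% in Variant 3 and 7.35% averaged.

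Tap1, Tap2 and Cftr are ABC genes under other symbols. Tap1, a subunit of the peptide transporter of antigen presentation, averaged 45.8 CPM in Variant 1 sgSetd2 and 27.2 CPM in Variant 1 sgNeo codes, and 53.8 CPM in Variant 3 sgSetd2 and 25.95 CPM in Variant 3 sgNeo codes, and rose averaged over variants (0.90, SE 0.20, adjusted p = 0.0228, edgeR). Tap2 and Cftr did not pass. Cftr, the chloride channel, averaged 9.43 ± 5.95 CPM in Variant 1 sgSetd2 codes and 0.536 ± 0.866 CPM in Variant 1 sgNeo codes (SD, n = 3 each). In Variant 3, Cftr was near 0 under both guides, at 0.0096 ± 0.0167 CPM in sgSetd2 and 0.157 ± 0.196 CPM in sgNeo codes (SD, n = 3 each).

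Between the variants no ABC transporter gene passed. In sgNeo codes, Variant 3 minus Variant 1 gave 0 of 39 genes by edgeR, against 0.005% of all genes, and 2 by DESeq2, Abca5 and Abcg2. By edgeR, 4 of the 39 had an unadjusted p under 0.05, beside 2080 of all 20009 genes. The shares of all genes given here are edgeR's. None is given for DESeq2, so its counts cannot be set against a background. Abca5 had a log2 difference of 1.4 (SE 0.31, adjusted p = 0.244 by edgeR and 0.00162 by DESeq2). Abcg2 had -1.61 (SE 0.47, adjusted p = 0.33 by edgeR and 0.0296 by DESeq2), but 1.05 (edgeR, adjusted p = 0.829) without the tumour of highest cell cycle mean in each code. In sgSetd2 codes the contrast gave 0 of 39 by edgeR, against 0.13% of all genes, and 1 by DESeq2, Abca1. There, 5 of the 39 had an unadjusted p under 0.05 by edgeR, beside 1940 of all 20009 genes. Abce1 codes had 122.2, 104.5 and 95.98 CPM in Variant 3 sgSetd2, against 125, 145.8 and 147 CPM in Variant 1 sgSetd2. They had 126.5, 124.1 and 117.2 CPM in Variant 3 sgNeo, against 181.7, 139.1 and 144.1 CPM in Variant 1 sgNeo. The variants did not overlap under either guide, but the log2 differences did not pass, at -0.37 (SE 0.14, adjusted p = 0.4) in sgSetd2 and -0.34 (SE 0.14, adjusted p = 0.421) in sgNeo codes. The test of whether the guide's effect differed between variants gave 0 of 39 by edgeR, against 0% of all genes, and 1 by DESeq2, Abca5. In that edgeR test, 3 of the 39 had an unadjusted p under 0.05, beside 1200 of all 20009 genes. For Abcg2 that difference was 1.31 (SE 0.65, adjusted p = 0.827), and it was -1.42 with tumours weighted equally within codes.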

How the data were processed

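RNA of 36 tumours was isolated with PicoPure and made into libraries with a SMART-Seq mRNA kit, which does not mark strand, per the labels' protocols. The authors deposited raw counts per gene. The submitters' processing notes name STAR 2.5.3a, R 4.2 and DESeq2 1.38.3; the sources used here give no counting tool, genome build or annotation. Symbols, coordinates and exon lengths came from GENCODE M21 (GRCm38).

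The code was made the unit by adding up its 3 tumours, and the 12 sums were fitted with edgeR 4.0.16 (R 4.3.3; TMM scaling, low-count filter leaving 20009 genes, robust quasi-likelihood test, Benjamini-Hochberg adjustment over all of them, threshold 0.05). The sum gives deeply sequenced tumours more weight. Each SE was taken as the size of the log2 fold change over the root of the F statistic. CPM is counts per 1 M of the scaled library. Unless another tool is named, adjusted p-values are edgeR's. Alternatives used limma 3.58.1 and DESeq2 1.42.0, other scaling and filtering, and leaving out each code or tumour. The sex of the code (4 of 12 male by Ddx3y above 50 CPM), the 4 tumours of Col1a1 above 10 CPM and the cell cycle setting were added after seeing the data. The edgeR step was tested on simulated counts of the Variant 1 codes alone (3 against 3, 17297 genes). There it found 66.7% of 4-fold and 22% of 2-fold changes, which were placed only in genes above a minimum count. These rates are not those of the fit used here, which shares its spread over 12 codes. No 2 libraries were identical.

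The genes and gene lists were chosen with earlier results of these data known. For 2 of the 50 genes, single values are not reported here. Full values were given to Abcg2 and Abca3, to each ABC gene that passed and to the 3 of smallest p in each contrast. Of each other list, the genes that passed were named. Intervals and limits cover counting error only.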

Additional observations from a re-analysis of the deposited data

Results flagged for a closer look

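Of 16 sets of 9 tumours examined on the log2(CPM + 1) scale (4 genes in 4 groups), 2 held a tumour far from its neighbours, and chance alone marks about 1 set in 20. For Abcc4 in Variant 1 sgSetd2, tumour 4 of code CE479 had 54.19 CPM, and the nearest other tumour had 31.82 CPM. For Abcc4 in Variant 3 sgSetd2, tumour 10 of code CE456 had 6.82 CPM, and the nearest other tumour had 22.63 CPM. The averaged Abcc4 call held without either of them.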

How the results depend on the processing

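The number of ABC transporter genes called between sgSetd2 and sgNeo in Variant 1 was 3, and it was 0 with tumours weighted equally (limma on mean log2-CPM), 1 with only the groups compared, 1 with the sex of the code as a covariate and 0 without the tumour of highest cell cycle mean in each code. With limma voom it was 3, but with Abcb1b in place of Abcg2. In Variant 3 it was 2, and it was 3 by DESeq2 (with Abca5), 1 with tumours weighted equally, with limma voom, with only the groups compared and without the tumours of Col1a1 above 10 CPM, and 0 without the tumour of highest cell cycle mean in each code. Averaged over variants it was 3, and 6 by DESeq2 (with Abca2, Abca7 and Abcc8), 4 with tumours weighted equally (with Abcb1b), 4 with limma voom (with Abcb1a and Abcb1b, without Abcg2) and 2 without the tumour of highest cell cycle mean in each code (without Abcg2). The contrasts between variants and the test of their difference gave 0, but by DESeq2 2 in sgNeo codes, 1 in sgSetd2 codes and 1 for the difference. Leaving out 1 code or tumour gave 0 to 3 in Variant 1, 0 to 2 in Variant 3, 3 to 4 averaged and 0 elsewhere. No share of all genes called in each setting is set beside these counts. They therefore do not show whether ABC transporter genes changed more than other genes between settings. The cause of the changes was not tested.

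Some uncalled values changed sign. Abca3 ran from -0.35 to 0.03 in Variant 1 and from -0.36 to 0.06 in Variant 3 when 1 code or tumour was left out. Its difference between variants ran from -0.23 to 0.21, and was 0.05 with sex as a covariate and 0.21 without the Col1a1 tumours. Variant 3 minus Variant 1 for Abcg2 was 1.05 in sgNeo and 0.01 in sgSetd2 codes without the tumour of highest cell cycle mean in each code, and -0.79 to 0.10 in sgSetd2 codes when 1 code or tumour was left out. For Abcc4 in sgSetd2 codes it was -0.08 with tumours weighted equally, -0.06 with limma voom and -0.14 to 0.26 when 1 was left out. The difference of the guide effect for Abcg2 was -1.42 with tumours weighted equally, -0.51 with limma voom and -1.04 without the tumour of highest cell cycle mean in each code.

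No paired analysis was possible because the groups share no code.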
